A study of Mus musculus with 4 samples.

Results

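Complement is a cascade of plasma and tissue proteins that tags targets for removal, and the genes described here are those of its classical arm, its anaphylatoxin receptors and its inhibitors. They were chosen by name as C1qa, C1qb, C1qc, C4b, C3, C3ar1, C5ar1, Serping1 and Cd59a, and their symbols were matched to the gene identifiers of the count table. Of these 9 genes, 7 were analysed among the 12700 genes of the table, while C3 and C5ar1 were not analysed here. A further 21 of 46 listed complement genes were analysed beside them.

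RNA-seq reads came from the brain of the Ids-ko mouse (Ids-/-), the model of mucopolysaccharidosis type II, in which the lysosomal enzyme iduronate 2-sulfatase is lacking, and from wild-type littermates. All animals were C57BL/6 and 9 months old. The cerebral cortex (Cx) and an area of midbrain, diencephalon and hippocampus (M), with which the methods of the study also include the striatum, gave the 4 libraries CxH (Ids-ko, Cx), CxWT (wild type, Cx), MH (Ids-ko, M) and MWT (wild type, M). Each condition is 1 library of pooled RNA, so no difference below has a replicate check, and each test sets 1 library against another and says nothing of the conditions they stand for.

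C1q is the recognition molecule of the classical pathway and is built from equal numbers of the chains encoded by C1qa, C1qb and C1qc. Once it binds a target, the proteases attached to it cleave C4 and C2, whose fragments form the enzyme that cleaves C3. Fragments of C4 and C3 coat the target, while the small fragments C3a and C5a act through receptors on myeloid cells. In the brain C1q is made mostly by microglia and C4 largely by astrocytes and oligodendrocytes, and the coating of synapses with C1q and C3 is a known route by which microglia remove them. Serping1 encodes the C1 inhibitor, which blocks the first proteases, and Cd59a encodes a membrane-bound inhibitor of the final lytic pore.

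The libraries held between 16380080 (MWT) and 23475080 (CxH) reads on genes. Levels are given as RPM, that is reads per 1000000 aligned reads, with 95% exact Clopper-Pearson intervals. Standard errors, intervals and floors cover counting error only, and 3 reads correspond to between 0.0779 and 0.104 RPM. Ids, the targeted gene (chrX:67596244-67618260, NCBI37/mm9), was at 135 RPM in the library labelled CxH against 354 in that labelled CxWT, and at 368 in MH against 155 in MWT. In M the label Ids-ko thus stands on the library with more Ids reads. The 10 cortical neuron markers summed to 1682 RPM in CxH and 1524 in MH, against 222 in CxWT and 165 in MWT, and the 15 midbrain and diencephalon markers summed to 23.6 and 35.1 RPM against 510.2 and 443. The libraries labelled CxWT and MH thus go against their labels in area markers, and MH and MWT in Ids. All names below are therefore those of the libraries as labelled, and directions between them are not assigned to genotype or area. Leaving out a library leaves no comparison in which it takes part.

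RefSeq promoters (GRCm38.p6, from 250 bases before to 50 after the start, 5′ to 3′ in the sense of the gene) were found for 4 of the 7 genes and are shown because these genes differ in how they moved: C1qb, C1qc and C3ar1 were higher in CxH than in CxWT, and Cd59a was lower. C1qa, C4b and Serping1 are named only. Capitals mark matches, on either strand, to GAGGAA (the core of a PU.1 site), TGACTCA (AP-1) and GAAA, 2 bases of any kind and again GAAA (the core of an interferon response element). C1qb lies in this build at chr4:136886151-136886450 (minus strand), C1qc at chr4:136892865-136893164 (minus), C3ar1 at chr6:122856108-122856407 (minus) and Cd59a at chr2:104095551-104095850 (plus).
C1qb: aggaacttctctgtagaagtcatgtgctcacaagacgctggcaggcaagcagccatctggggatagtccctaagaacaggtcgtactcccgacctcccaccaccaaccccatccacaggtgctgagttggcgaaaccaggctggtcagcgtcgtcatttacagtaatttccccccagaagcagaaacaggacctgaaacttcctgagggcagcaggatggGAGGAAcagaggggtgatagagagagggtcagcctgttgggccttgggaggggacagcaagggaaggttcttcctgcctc
C1qc: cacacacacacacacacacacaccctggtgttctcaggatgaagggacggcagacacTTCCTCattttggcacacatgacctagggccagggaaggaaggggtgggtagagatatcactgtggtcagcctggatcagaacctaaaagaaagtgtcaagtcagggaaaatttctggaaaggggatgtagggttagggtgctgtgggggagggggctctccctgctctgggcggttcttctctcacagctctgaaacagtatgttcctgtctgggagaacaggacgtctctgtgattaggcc
C3ar1: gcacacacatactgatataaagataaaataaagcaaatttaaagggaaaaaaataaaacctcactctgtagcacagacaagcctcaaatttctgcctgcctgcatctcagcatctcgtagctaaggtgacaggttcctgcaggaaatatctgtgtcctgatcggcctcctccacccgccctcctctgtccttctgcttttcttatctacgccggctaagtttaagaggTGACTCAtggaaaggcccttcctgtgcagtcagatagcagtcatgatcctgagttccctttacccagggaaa
Cd59a: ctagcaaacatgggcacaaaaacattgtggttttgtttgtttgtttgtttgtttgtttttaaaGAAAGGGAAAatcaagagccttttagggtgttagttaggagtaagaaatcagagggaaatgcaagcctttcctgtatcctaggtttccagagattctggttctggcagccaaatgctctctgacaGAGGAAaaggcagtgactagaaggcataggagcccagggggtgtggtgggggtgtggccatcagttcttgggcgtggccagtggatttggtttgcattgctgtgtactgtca
With positions counted from the start, GAGGAA began at −30 in C1qb and at −62 in Cd59a, and its reverse complement TTCCTC at −193 in C1qc. The PU.1 core was present in 28.3% of 32851 promoters of the same length, so it is a common run of letters. C3ar1 had TGACTCA at −22, a motif found in 5.2% of promoters, and Cd59a had GAAAGGGAAA at −187, a form of a motif found in 3.44%. The NF-kB motif (GGGA, 1 base of any kind and TTTCC), found in 0.411% of promoters, had no match in these 4 windows. A match is a run of letters and was not tested as a binding site.

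The C1q chains were the most abundant of the complement genes chosen and followed the same order in the 4 libraries. C1qa, the A chain (chr4:136451832-136454718, NCBI37/mm9), was at 161 RPM (157 to 165) in CxH, 60.4 (57.8 to 63.1) in CxWT, 63.5 (61.0 to 66.1) in MH and 128 (124 to 133) in MWT. CxH was highest and MWT second, and only the intervals of CxWT and MH overlapped. The log2 ratio of C1qa was 1.42 ± 0.037 for CxH over CxWT, a 2.67-fold higher level, and −1.01 ± 0.038 for MH over MWT, a 2.02-fold lower level. Both were called, that is, under a Poisson likelihood ratio test they had a p under 0.05 and they lay at least 0.7 from 0 on the log2 scale.

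C1qb, the B chain (chr4:136436044-136442102), was at 85.7 RPM (82.8 to 88.7) in CxH, 35.7 (33.7 to 37.7) in CxWT, 37.0 (35.1 to 39.0) in MH and 59.5 (56.8 to 62.4) in MWT. Again CxH and MWT stood above the other libraries, and CxWT and MH overlapped. Its log2 ratio was 1.26 ± 0.049 for CxH over CxWT, which was called, and −0.68 ± 0.052 for MH over MWT, just under the size needed for a call. With the column totals of the counts as scaling the latter was −0.74 and called.

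C1qc, the C chain (chr4:136445719-136448980), was at 89.3 RPM (86.3 to 92.3) in CxH, 42.5 (40.3 to 44.7) in CxWT, 46.2 (44.1 to 48.5) in MH and 61.8 (59.0 to 64.7) in MWT. The order of the libraries was that of the other chains, with a smaller distance between MWT and the low pair. Its log2 ratio was 1.07 ± 0.045 for CxH over CxWT, which was called, and −0.42 ± 0.049 for MH over MWT, which was not.

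**Figure D1:**
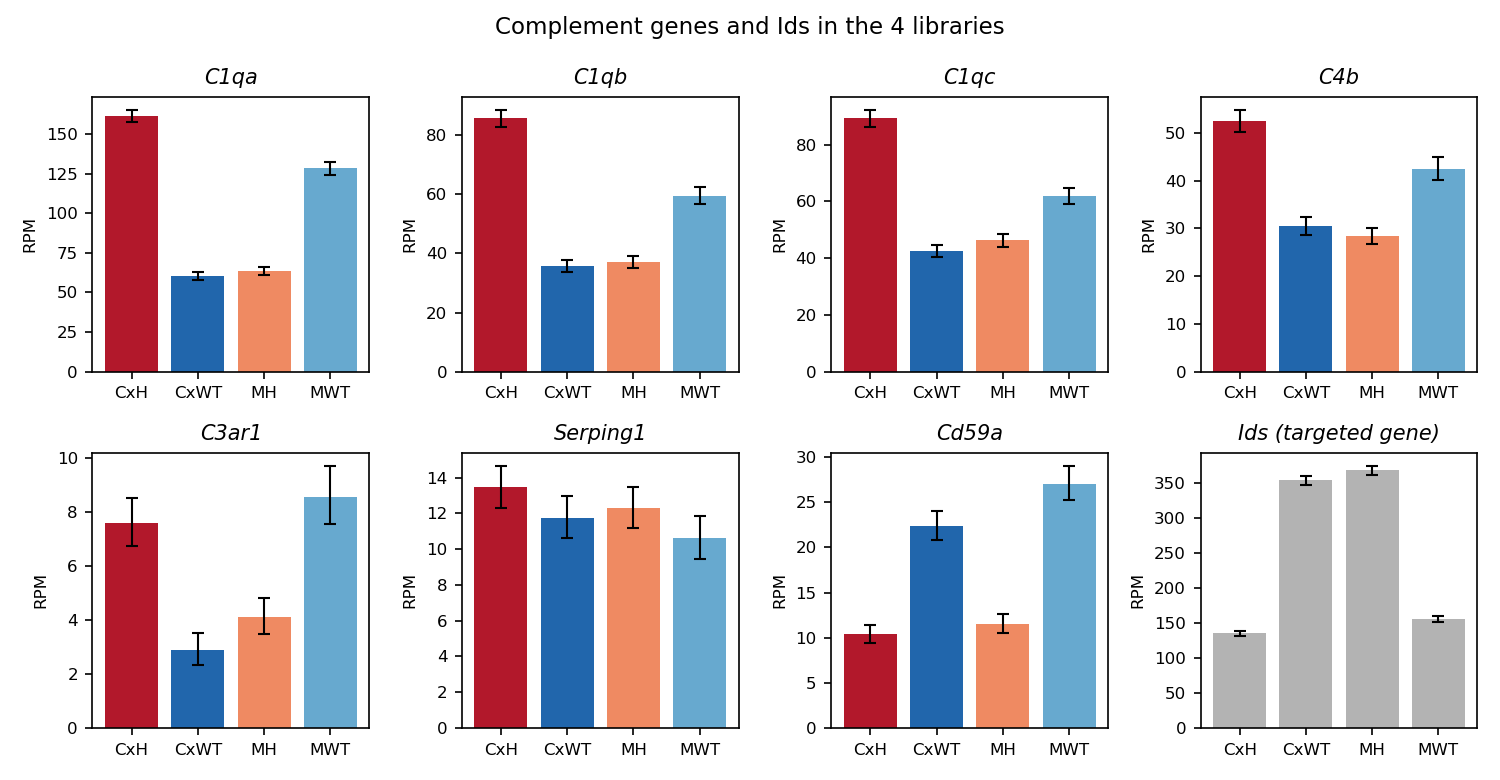
Levels in RPM (reads per 1000000 aligned reads, linear axes from 0) of the 7 complement genes analysed and of Ids in the 4 libraries, named by their labels; bars are single libraries and error bars are 95% exact Clopper-Pearson intervals, which cover counting error only. The C1q chains, C4b and C3ar1 are higher in CxH and MWT than in CxWT and MH, Serping1 lies between 10.6 and 13.4 RPM throughout, and Cd59a is higher in CxWT and MWT.

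The 3 C1q genes lie side by side on the minus strand within 18675 bases of chromosome 4, in the order C1qb, C1qc and C1qa, and no stretch of 50 bases is shared between their transcripts. Per kilobase of transcript (1040, 1088 and 1203 bases), C1qa was at 155 RPKM in CxH against 58.1 in CxWT, and at 61.0 in MH against 123 in MWT. On the same scale, and with the libraries in the same order, C1qb was at 78.8, 32.8, 34.05 and 54.7 RPKM, and C1qc at 74.2, 35.3, 38.4 and 51.4. Per length, then, C1qa had the highest level of the chains in every library, and C1qb and C1qc were close to each other.

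The balance of the chains also moved between libraries. C1qa made up 48.0% of the C1q reads in CxH (47.1 to 48.8), 43.6% in CxWT (42.2 to 45.0), 43.3% in MH (41.9 to 44.6) and 51.4% in MWT (50.2 to 52.6). Its share was larger in the libraries with more C1q, and the interval of MWT lay above that of CxH although CxH had more C1q reads. The share of C1qc ran the other way, at 26.5% in CxH against 30.7% in CxWT, and at 31.5% in MH against 24.8% in MWT. C1qb stayed between 23.8% and 25.7% of the reads. Across 10707 genes, the GC content of the transcript was related to the log2 ratio in every comparison (Spearman rho from 0.461 to 0.629, across genes, which are not independent replicates). GC content was 59.5% in C1qa, 57.4% in C1qb and 57.5% in C1qc, and the part of GC content in the shift of shares was not tested.

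**Figure D2:**
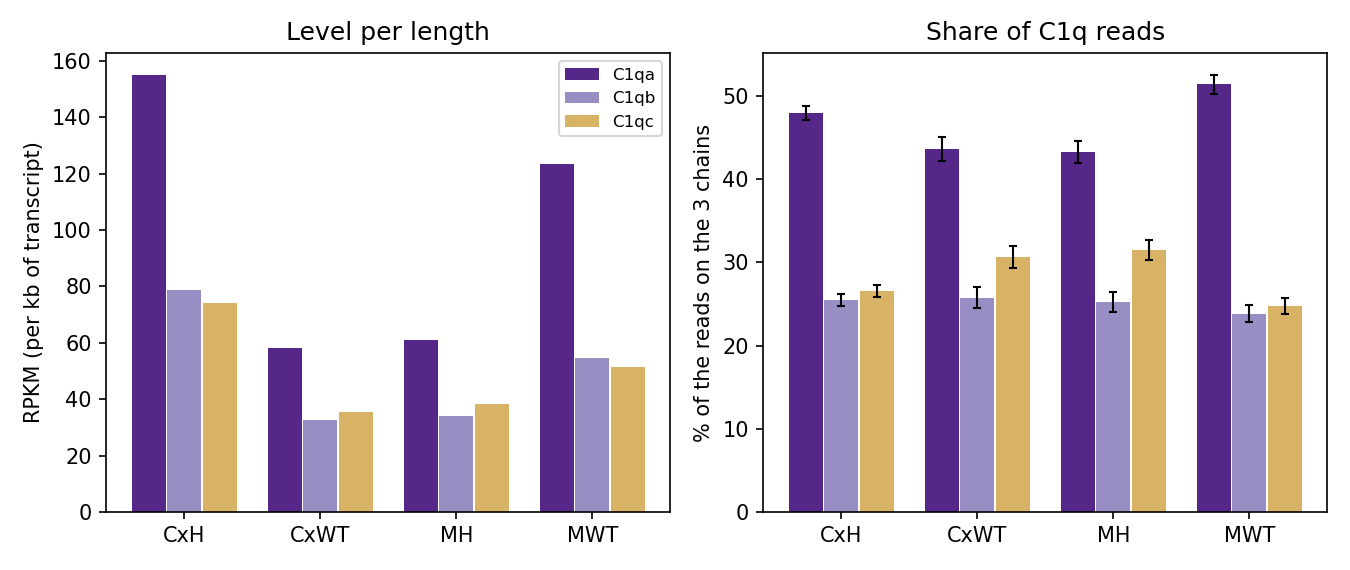
C1q chains in the 4 libraries: on the left the level in RPKM (reads per 1000000 aligned reads and kilobase of transcript), on the right the share of each chain among the reads on the 3 chains in percent, with 95% exact Clopper-Pearson intervals for counting error. C1qa is the highest chain per length in every library, and its share runs from 43.3% in MH to 51.4% in MWT.

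Of the microglia markers, 11 of 13 activated and 7 of 12 homeostatic ones were, like the C1q chains, higher in both CxH and MWT than in both CxWT and MH, where 9.02% of all genes were. Of the 14 homeostatic microglia markers listed, 12 were analysed, and they summed to 612 RPM in CxH against 396 in CxWT, and to 476 in MH against 509.9 in MWT. Among the defining markers, P2ry12 was at 35.0, 28.1, 37.5 and 36.5 RPM, Tmem119 at 35.7, 20.6, 24.9 and 17.9, Cx3cr1 at 73.3, 47.5, 58.7 and 57.7 and Csf1r at 99.1, 62.4, 83.1 and 65.9 in the same order of libraries. These 4 markers were thus no higher in MWT than in MH. Others of the list were, and Fcrls, at 58.1, 16.4, 23.9 and 48.3 RPM, and Aif1, at 3.25, 1.46, 1.79 and 3.73, both named after their values were seen, were called higher for CxH over CxWT and lower for MH over MWT.

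The activated microglia markers, of which 13 of 14 were analysed, summed to 441 RPM in CxH against 229 in CxWT, and to 215 in MH against 501 in MWT. For CxH over CxWT 10 of these were called higher and 1 lower, and for MH over MWT 10 were called lower and none higher. Of all genes, 9.46% were called higher and 11.5% lower for CxH over CxWT, and 12.3% and 12.7% for MH over MWT. Tyrobp, the signalling adaptor of myeloid receptors, was at 18.9, 7.38, 7.44 and 21.0 RPM. In the homeostatic list 4 of 12 were called higher for CxH over CxWT and none lower, and all 12 were above 0. For MH over MWT 1 was called higher and 2 lower, and these counts for MH over MWT are near the shares of all genes. Of the blood leukocyte and border macrophage markers, 6 of 12 were analysed, and they summed to 41.5, 32.9, 29.8 and 44.5 RPM, while Ccr2 was not analysed here. All 6 were higher in both CxH and MWT than in both CxWT and MH, where 9.02% of all genes were. Of the 6, 3 were called higher for CxH over CxWT and 3 called lower for MH over MWT. No microglia or leukocyte marker analysed was at 0 in any library. In bulk RNA, fewer cells of a type and less RNA per cell cannot be told apart, and the part of these cells in the C1q ratios was not tested.

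Levels of the other cell type markers were as follows. The 7 general astrocyte markers summed to 3303, 2557, 2901 and 2993 RPM, the libraries being in the order of the plots, and the 7 reactive astrocyte markers analysed of 10 to 701, 354, 323 and 667, most of it Gfap at 604, 280.1, 253 and 555 RPM. The 10 endothelial markers summed to 279, 225, 236 and 280.4 RPM and the 8 mural and meningeal fibroblast markers analysed of 10 to 179, 161, 167 and 163. The 8 choroid plexus markers summed to 584, 169, 644 and 295 RPM and the 2 red cell markers analysed of 5 to 125, 254, 186 and 77.1. Most of the choroid plexus sum was Ttr, at 537, 113, 583 and 221 RPM, and most of the red cell sum was Hba-a1. For CxH over CxWT, 4 of the 8 choroid plexus markers were called higher and 2 lower, where 9.46% and 11.5% of all genes were. As sums, choroid plexus and red cell markers thus did not follow the order of C1q. The sums of both astrocyte lists and of the endothelial markers were highest in CxH and MWT.

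**Figure D3:**
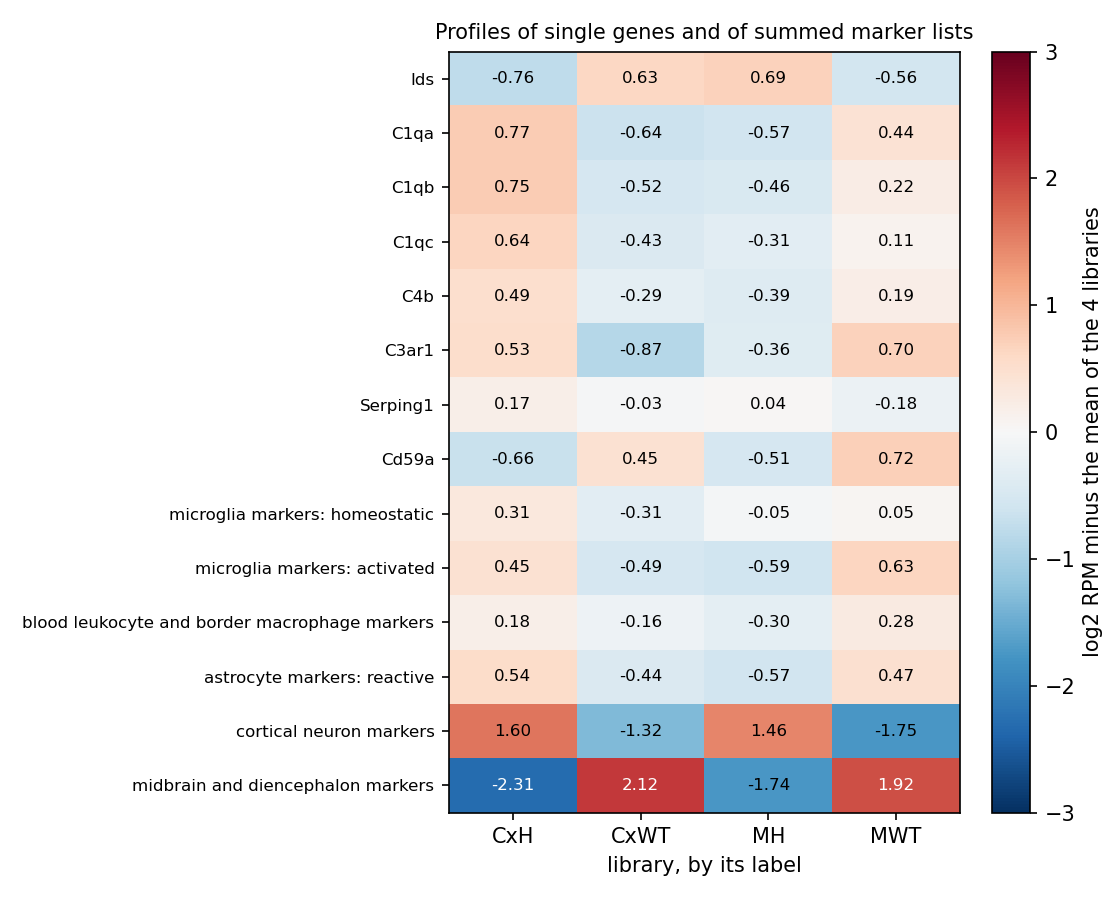
Centred log2 RPM (each value minus the mean of the 4 libraries) of Ids, the 7 complement genes and the summed RPM of marker lists, by labelled library; colour and printed number give the same value. Rows of C1qa, C1qb, C1qc, C4b and C3ar1 are above 0 in CxH and MWT. So are the activated and homeostatic microglia, blood leukocyte and border macrophage, and reactive astrocyte markers, the homeostatic ones at only 0.05 in MWT. Cd59a is above 0 in CxWT and MWT, as are midbrain and diencephalon markers.

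C4b encodes complement C4, the source of the C4b fragment that becomes bound to targets (chr17:34865325-34880827, minus strand, 41 exons). It was at 52.5 RPM (50.3 to 54.9) in CxH, 30.5 (28.6 to 32.4) in CxWT, 28.4 (26.7 to 30.2) in MH and 42.5 (40.1 to 44.9) in MWT. CxH and MWT again stood apart from each other and above CxWT and MH, which overlapped. The log2 ratio was 0.79 ± 0.055 for CxH over CxWT, which was called, and −0.58 ± 0.060 for MH over MWT, which was not. Corrected for GC content and length, the first was 0.65 and no longer called, and the second −0.96 and called. Per kilobase, C4b reached 9.77 RPKM in CxH and 5.28 in MH, far under the C1q chains. Of the 7 reactive astrocyte markers analysed, 4 were higher in both CxH and MWT than in both CxWT and MH, Gfap among them, where 9.02% of all genes were. The part of these markers in the C4b ratios was not tested.

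C4a, the neighbouring near-copy of C4b known as sex-limited protein (chr17:34946037-34960409), was at 33.2 RPM in CxH against 18.8 in CxWT, and at 17.8 in MH against 32.4 in MWT. It was called in both comparisons, with a log2 ratio of 0.82 ± 0.070 for CxH over CxWT and −0.86 ± 0.073 for MH over MWT. Of the reads on both genes, C4b held between 61.3% and 61.9% in CxH, CxWT and MH, and 56.7% in MWT. Of the 50-base windows of the C4b transcript, 21.9% are found letter for letter in the region of C4a, and reads that fit both genes were not counted by the authors, so the levels of C4b and C4a are uncertain.

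C3ar1, the receptor for C3a (chr6:122797156-122806179), had few reads, between 97 in CxWT and 292 in CxH. It was at 7.58 RPM (6.74 to 8.51) in CxH, 2.89 (2.34 to 3.52) in CxWT, 4.09 (3.47 to 4.80) in MH and 8.57 (7.54 to 9.70) in MWT. The intervals of CxH and MWT overlapped, as did those of CxWT and MH, and the pairs stood apart. The log2 ratio was 1.39 ± 0.17 for CxH over CxWT and −1.06 ± 0.15 for MH over MWT, and both were called. At 43.0% the GC content of its transcript is far under that of the C1q chains. The activated microglia markers had the same libraries high, and their part in the C3ar1 ratios was not tested. Per length C3ar1 was the lowest of the 7 genes, at 0.670 to 1.99 RPKM.

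Serping1, the C1 inhibitor (chr2:84605544-84615601), differed little. It was at 13.4 RPM (12.3 to 14.7) in CxH, 11.7 (10.6 to 12.97) in CxWT, 12.3 (11.2 to 13.5) in MH and 10.6 (9.45 to 11.9) in MWT. Every neighbouring pair in this order of levels overlapped. Its log2 ratio was 0.20 ± 0.096 for CxH over CxWT and 0.21 ± 0.11 for MH over MWT. Counting error alone put both just under the p threshold of 0.05, and neither reached the size for a call.

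Cd59a, the inhibitor of the lytic pore (chr2:103935958-103955511), went the other way from the C1q chains for CxH over CxWT. It was at 10.4 RPM (9.40 to 11.5) in CxH, 22.4 (20.9 to 24.1) in CxWT, 11.5 (10.5 to 12.7) in MH and 27.1 (25.2 to 29.1) in MWT. CxWT and MWT were high, CxH and MH low, and the intervals of the low pair overlapped. The log2 ratio was −1.11 ± 0.089 for CxH over CxWT and −1.23 ± 0.087 for MH over MWT, and both were called. The midbrain and diencephalon markers were likewise high in CxWT and MWT, and 36.9% of all genes were higher in both CxWT and MWT than in both CxH and MH. The part of brain area in the Cd59a ratios cannot be told apart from the labelled conditions. Its near-copy Cd59b was not analysed here, and 3.98% of the 50-base windows of Cd59a are shared with it.

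The comparison CxH vs. CxWT sets the libraries labelled Ids-ko and wild type in Cx side by side. Their cortical neuron markers summed to 1682 RPM in CxH and 222 in CxWT, so the pair also differs in area by its markers. The part of brain area in its ratios cannot be told apart from the labelled conditions. Of the 7 genes, 5 were called higher, against 9.46% of all genes, 1 was called lower, against 11.5%, and Serping1 was not called. In either direction this makes 6 of 7, where 20.9% of all genes were called. Their median log2 ratio was 1.07, and that of all genes −0.09. The lowest called size was that of C4b, which also lost its call with an assumed coefficient of variation of 0.2 between pools.

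MH vs. MWT is the pair labelled M, and its cortical neuron markers summed to 1524 RPM in MH and 165 in MWT. The part of brain area cannot be told apart here either. None of the 7 was called higher, where 12.3% of all genes were, and C1qa, C3ar1 and Cd59a were called lower, where 12.7% were. In either direction 25.0% of all genes were called. The median was −0.68, against −0.07 over all genes. C1qb, C1qc and C4b were below 0 with a p under 0.05 but did not reach the size for a call. With the correction for GC content and length, 5 were called lower, with C1qb and C4b added.

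Put side by side, C1qa, C1qb, C1qc, C4b and C3ar1 were above 0 for CxH over CxWT and below 0 for MH over MWT. Each had a p under 0.05 by the Poisson likelihood ratio test, and 4.22% of all genes did the same. C1qa and C3ar1 were called higher for CxH over CxWT and lower for MH over MWT, as were 0.433% of all genes. In levels, these 5 genes were higher in both CxH and MWT than in both CxWT and MH, which 9.02% of genes were. CxH and MWT are the libraries with fewer Ids reads.

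**Figure D4:**
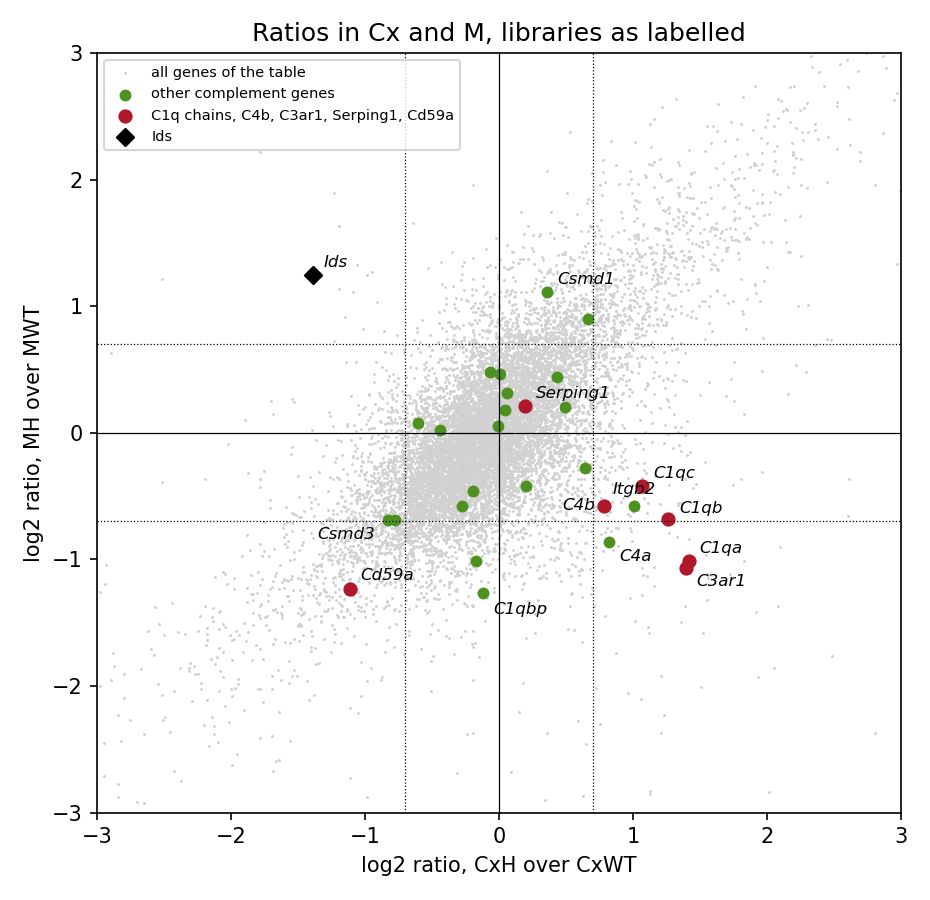
Log2 ratio of CxH over CxWT (x axis) against that of MH over MWT (y axis) for 12576 of the 12700 genes, as 124 lie outside the axes, with dotted lines at a size of 0.7. The C1q chains, C4b, C3ar1, C4a and Itgb2 lie at the lower right, Cd59a at the lower left with the run of all genes, and Ids at the upper left.

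CxH vs. MH sets the libraries labelled Ids-ko in Cx and in M side by side. Both held cortical neuron markers at like levels, and Ids was at 135 RPM in CxH and 368 in MH, so this pair does not compare areas by its markers. Here 5 of the 7 were called higher, against 2.43% of all genes, and none lower, against 1.06%, where 3.50% of all genes were called in either direction. The log2 ratio was 1.34 ± 0.035 for C1qa, 1.21 ± 0.046 for C1qb, 0.95 ± 0.043 for C1qc, 0.89 ± 0.055 for C4b and 0.89 ± 0.14 for C3ar1. It was 0.13 ± 0.092 for Serping1 and −0.15 ± 0.10 for Cd59a, neither of which was called. Only C1qa and C1qb kept a call at a log2 ratio of 1. The median was 0.89, and 0.01 over all genes.

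CxWT vs. MWT does the same for the libraries labelled wild type. Both held midbrain and diencephalon markers at like levels, and Ids was at 354 RPM in CxWT and 155 in MWT. In either direction 7.54% of all genes were called. None of the 7 was called higher, against 5.43% of all genes, and 3 were called lower, against 2.11%, namely C3ar1 at −1.57 ± 0.17, C1qa at −1.09 ± 0.040 and C1qb at −0.74 ± 0.054. C1qc was at −0.54 ± 0.051, C4b at −0.48 ± 0.061, Cd59a at −0.27 ± 0.074 and Serping1 at 0.15 ± 0.11. The receptor C3ar1 thus had the largest ratio of the 7 here. The median was −0.54, and 0.04 over all genes.

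The remaining pairs of libraries were compared too. MH over CxWT gave log2 ratios between −0.10 and 0.12 for the C1q chains and C4b, 0.50 ± 0.19 for C3ar1 and 0.06 ± 0.099 for Serping1, while Cd59a was at −0.96 ± 0.087. CxH over MWT gave 0.33 ± 0.030 for C1qa, 0.53 ± 0.043 for C1qb, 0.53 ± 0.042 for C1qc and 0.31 ± 0.052 for C4b, and −0.18 ± 0.12 for C3ar1. Between the libraries with like Ids levels, then, the C1q, C4b and C3ar1 ratios stayed under the size for a call, and Cd59a did not, with −1.38 ± 0.089 for CxH over MWT.

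By profile over the 4 libraries, the genes most like the summed C1q chains among the 11004 genes that had 100 reads or more in each library were Myo1f (root mean square distance of centred log2 RPM 0.040), Ifitm2 (0.077), Icam1 (0.082), Itgb2 (0.12) and Tmem256 (0.12). Myo1f, a myosin of myeloid cells, was at 8.60 and 3.42 RPM in CxH and CxWT and at 3.77 and 6.67 in MH and MWT. Icam1, an adhesion ligand of the β2 integrins, was at 9.01, 3.51, 4.23 and 6.22 RPM in that order of libraries. The genes most like C4b were Ptgds (0.011), Hexa (0.025), Rab3il1 (0.028), Rps9 (0.036) and Tagln2 (0.038). Ptgds, the brain prostaglandin D synthase, was at 484, 282, 266 and 389 RPM, and Hexa, a lysosomal hexosaminidase subunit, at 67.2, 37.5, 35.6 and 51.9. A profile over 4 libraries has few degrees of freedom, and the distances are a description.

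Among the other complement genes, 2 of 21 were called higher and 2 lower for CxH over CxWT, with a median log2 ratio of 0.01, and 2 higher and 3 lower for MH over MWT, with a median of 0.02. These counts are near the shares of all genes. With TMM factors or DESeq2 size factors as scaling, 4 were called higher and 1 lower for CxH over CxWT. In CxH vs. MH 2 were called higher and 1 lower, where 2.43% and 1.06% of all genes were. In CxWT vs. MWT none was called higher and 3 lower, where 5.43% and 2.11% of all genes were.

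Of the receptors, Itgb2, the β2 chain of complement receptors CR3 and CR4, was at 14.4 RPM in CxH against 7.17 in CxWT, and at 7.12 in MH against 10.6 in MWT, which is the order of C4b at another level. Its log2 ratio was 1.005 ± 0.11 for CxH over CxWT, which was called, and −0.58 ± 0.12 for MH over MWT, which was not. Itgam, its partner in CR3, was at 33.1, 21.3, 25.6 and 31.0 RPM and was called in none of the 4 comparisons, and its values are given after they were seen. Of the 6 receptor genes listed 2 were analysed, and both were higher in CxH and MWT than in CxWT and MH, where 9.02% of all genes were.

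Of the regulators, 7 of 10 were analysed. C1qbp, a mitochondrial protein that also binds C1q, was at 17.1 and 18.6 RPM in CxH and CxWT and at 14.6 and 35.1 in MH and MWT, so that MWT alone stood high. Its log2 ratio was −1.26 ± 0.077 for MH over MWT, which was called, and −0.12 for CxH over CxWT, which was not. Cd55, the decay-accelerating factor, was at 2.0, 3.42, 2.60 and 4.18 RPM and was called lower for CxH over CxWT at −0.77 ± 0.21. It was at −0.69 ± 0.20 for MH over MWT, just under the size for a call. Its call was lost with TMM or DESeq2 factors, which raised every ratio for CxH over CxWT by 0.093 or 0.087, and with the correction for GC content and length.

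The brain proteins with CUB and sushi domains, of which 6 of 7 were analysed, had other patterns. Csmd1 was at 60.0 RPM in CxH against 46.9 in CxWT, and at 75.5 in MH against 35.0 in MWT, and was called higher for MH over MWT at 1.11 ± 0.053. Sez6, a neuronal member, was at 176, 111, 150.1 and 80.4 RPM and was called higher for MH over MWT at 0.90 ± 0.036. Csmd3 was at 22.7, 40.3, 26.4 and 42.6 RPM and was called lower for CxH over CxWT at −0.83 ± 0.063, a call lost with the correction for GC content and length. For MH over MWT Csmd3 was at −0.69 ± 0.062, just under the size for a call. Sez6 was higher in CxH and MH, as were the cortical neuron markers, and Csmd3 in CxWT and MWT, as were the midbrain and diencephalon markers, and the part of brain area in these ratios cannot be told apart from the labelled conditions.

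Of the classical and lectin pathway genes beside C1q and C4, 3 of 12 were analysed, and of the alternative pathway genes 2 of 3. None of these 5 was called for CxH over CxWT or for MH over MWT, where 20.9% and 25.0% of all genes were. Masp2 was called lower for CxH over MH at −0.71 ± 0.064, where 1.06% of all genes were. The classical and lectin genes had a median log2 ratio of −0.44 for CxH over CxWT and 0.02 for MH over MWT, and the alternative pathway genes of 0.03 and 0.32. None of the 7 listed components of the terminal pathway was analysed here.

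**Figure D5:**
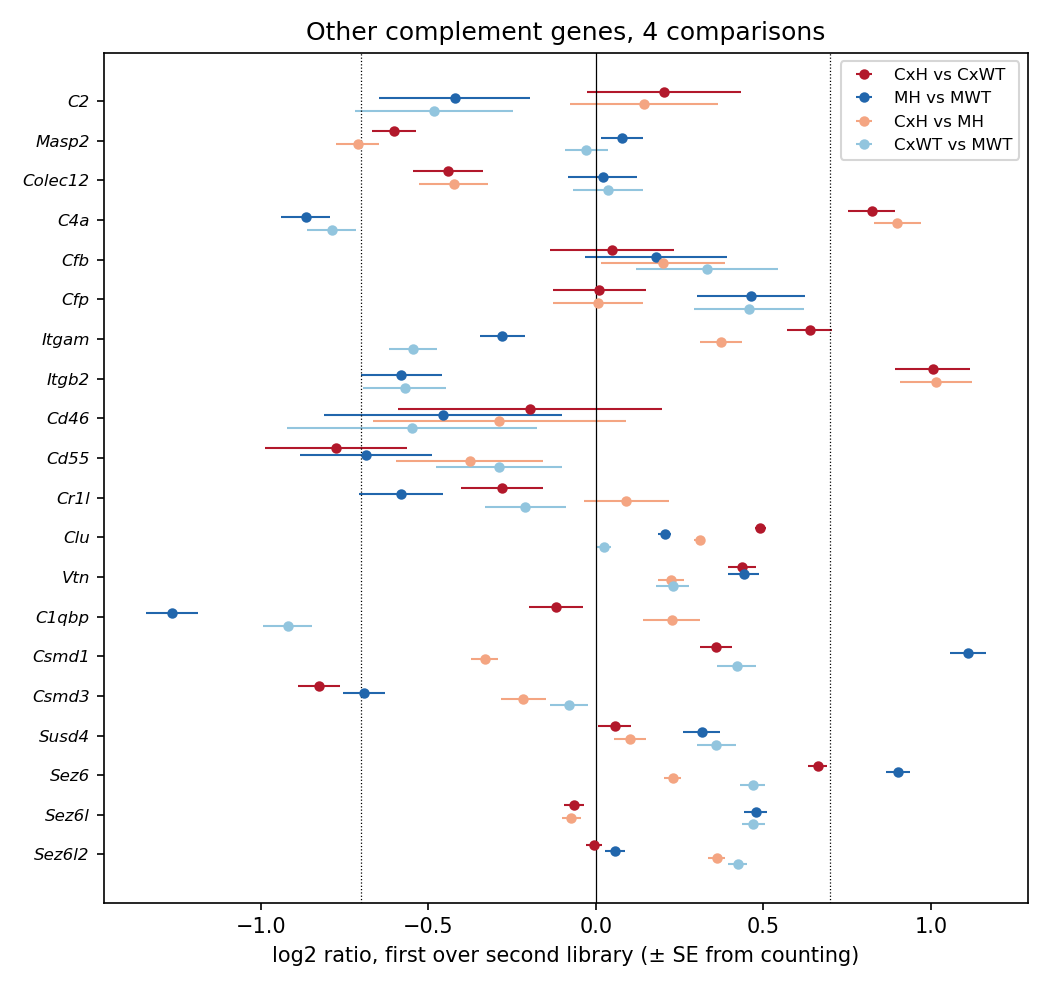
Log2 ratios of 20 of the 21 other complement genes analysed in the 4 comparisons (first library over second, linear axis in log2 units), with standard errors from counting and dotted lines at a size of 0.7. C4a and Itgb2 lie to the right for CxH over CxWT and to the left for MH over MWT, while C1qbp lies to the left in the comparisons with MWT.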

How the data were processed

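Pooled polyA RNA of each of 4 conditions was sequenced as 1 library, all in a single SOLiD 3 Plus run. The authors aligned the reads to NCBI37/mm9 with PASS (best hit, at most 2 mismatches, no gap), kept reads on a single gene and genes covered over most of their length, and deposited the counts, which are reads per gene without normalization. The gene annotation is not given in the sources used here. Whether counting used strand is not stated.

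From the deposited counts, RPM were computed with the aligned reads of each library given by the study as totals, and RPKM with the length of the longest protein-coding transcript in GENCODE vM1 (any transcript for C4a). Symbols were found for 12690 genes, positions for 12423 and GC content for 12232. Log2 ratios used a count of 1 in place of 0. A Poisson likelihood ratio test was run for every gene, and a call needed, as set by the authors, a log2 ratio of 0.7 or more in either direction at a p-value under 0.05. Promoters came from RefSeq.

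Named are the chosen genes, Ids, other complement genes called for CxH over CxWT or MH over MWT with at least 50 reads in 1 library (at most 4 per role), C4a, Cd59b, 7 cell markers and, by profile, the 5 genes nearest to C1q and to C4b. Fcrls, Aif1, Itgam, Ttr, Hba-a1 and Masp2 were named outside this rule, after their values were seen. The genes and lists were chosen with earlier results of these data known. Alternatives were the scalings by column totals, edgeR TMM factors and DESeq2 size factors, a log2 threshold of 1, a minimum of 100 reads, p-values adjusted after Benjamini and Hochberg, 0.5 added to every count, the exact test of edgeR taking 0.2 as biological coefficient of variation, and a correction for GC content and length fitted over 10707 genes. Of the steps, only the likelihood ratio test and the call were tested on simulated counts. R 4.3.3 with DESeq2 1.42.0 and edgeR 4.0.16 gave the TMM and DESeq2 scalings and the exact test, and Python 3.11.15 with scipy 1.17.1, pandas 2.3.3, numpy 2.4.6 and matplotlib 3.10.9 the rest. Raw reads were not used here, and 1 of the other complement genes is counted but not reported here by name.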

Additional observations from a re-analysis of the deposited data

Results flagged for a closer look

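Given here are genes whose ratio between the libraries labelled Ids-ko and wild type ran in opposite directions in the pairs labelled Cx and M. The value is the log2 ratio of CxH over CxWT minus that of MH over MWT. This difference was 2.43 ± 0.053 for C1qa, 1.95 ± 0.071 for C1qb, 1.49 ± 0.067 for C1qc, 1.37 ± 0.082 for C4b and 2.46 ± 0.22 for C3ar1, where each error is from counting. With 1 library per condition, the difference was not tested against variation between pools. The same difference was −2.63 ± 0.034 for Ids, −0.02 ± 0.14 for Serping1 and 0.12 ± 0.12 for Cd59a.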

How the results depend on the processing

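Under 9 alternatives the 28 ratios of the 7 genes gave 252 values. Of these, 238 kept direction and call, 5 gained a call, 9 lost one and none reversed. Part of this was fixed in advance. The threshold of 1, the adjusted p, the minimum of reads and the coefficient of variation of 0.2 reused the main ratios. With these, direction could not change. The minimum of reads left out none of the 7 genes, so it could not change a call either. Each scaling moved all ratios of a comparison alike, by at most 0.093 in size. The counts are thus a description and no measure of robustness. No paired analysis was possible because each condition is 1 library and the labels give no replicate numbers, and no library could be left out for the same reason. With the correction for GC content and length, 5 of the 7 genes were called in place of 3 in MH vs. MWT and in CxWT vs. MWT, where C1qc was then at −0.74 and C4b at −0.83. In CxH vs. MH a log2 threshold of 1 left 2 of 5 calls, and C1qc at 0.67 lost its call with the GC and length correction. In CxWT vs. MWT C1qb lost its call at a threshold of 1 and with a coefficient of variation of 0.2. Of the other complement genes, 4 were called in CxH vs. CxWT, and 5 with TMM or DESeq2 factors, 2 with a coefficient of variation of 0.2, and 1 each at a threshold of 1 and with the GC and length correction. In MH vs. MWT the count was 5, and 7 with column totals, 3 at a threshold of 1 and 2 with the correction. In CxH vs. MH it was 3, and 2 with a coefficient of variation of 0.2 and 1 each at a threshold of 1 and with the correction. In CxWT vs. MWT it was 3, and 1 with a coefficient of variation of 0.2, while under the Poisson likelihood ratio test at a threshold of 1 it was 0. Scaling moved the share of higher among all calls, in CxH vs. CxWT from 45.2% to 56.0% with TMM and 55.4% with DESeq2 factors, and with column totals from 69.6% to 58.4% in CxH vs. MH and from 72.0% to 55.2% in CxWT vs. MWT. With the GC and length correction the last 2 were 56.5% and 45.0%. No scaling moved the median log2 ratio of all genes by over 0.1. Of the 7 genes, C3ar1 had the fewest reads. Variation between pools was not measured.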
